A study of Mus musculus with 3 samples.

Results

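Sequencing depth can pile up on a few positions or spread over many. The windows described here are those where it was spread most widely: stretches of 10000 bases on the autosomes of mouse 2-cell embryos in which alignments began at 1500 or more different positions in every litter. There were 255 such windows among 247243 autosomal windows of the mm9 genome, after 3 windows had been left out by their places on chromosomes 1 and 2. With those 3 set aside, 0.103% of autosomal windows reached the limit. Members were chosen by the number of distinct start positions in these same libraries, so their starts, levels and covered lengths are given as descriptions, with no test.

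The libraries were 3 litters of 2-cell embryos, taken at embryonic day 1.5. Each library pooled the embryos of a litter. The mothers were LSD1 FL/FL and ZP3::Cre negative, on a mixed strain with C57/Bl6J. LSD1 is a histone demethylase gene, FL/FL means that both copies carry the floxed allele, and ZP3::Cre is a transgene whose promoter acts in growing oocytes. With no Cre in the mothers the floxed allele is expected to be whole in their oocytes. The fathers are called wild type CB6 in one label and C57/Bl6J in another. Total RNA was amplified by SPIA at a constant temperature, and the resulting cDNA was sheared before library construction. With 1 group there was no contrast between conditions. Separate litters give the spread, and the labels do not give the number or sex of the embryos in each.

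The nuclear depth was 34014013, 32431630 and 40474940 alignments of 72 bases in litters 1, 2 and 3. A member window held a median of 228.4 ± 17.1 RPM, alignments per 1000000 nuclear alignments (SD, n = 3 litters), which is 22.8 ± 1.71 RPKM, the same per kb of window. The litter medians were 208.8, 236.1 and 240.3 RPM. The covered length of a member window had a median of 4950, 5323 and 4772 bases in the litters, a mean of 5015 ± 281 (SD, n = 3). All members together took 9.82% ± 0.677 of the autosomal alignments and 6.14% ± 0.240 of the autosomal start positions. The amplified reads carry no molecular identifiers, so repeated alignments at a start are not independent molecules. In a bulk library, fewer cells with a transcript and less of it per cell cannot be told apart.

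Around the 2-cell stage the mouse embryo passes from RNA made by the mother in the growing oocyte to RNA made from its own genome. Much of the maternal RNA is degraded at this time while the first broad wave of embryonic transcription begins. A long exon offers room for many different alignments, whereas a short exon can only repeat the same few starts. Alignments of 72 unbroken bases do not cross a splice junction, so the ends of an exon can appear as edges in the coverage.

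An annotation of mm9 was not used here. Genes were named by shape: the exon pattern of GENCODE M21, which belongs to a later build, was laid over the coverage until exon lengths and spacings matched, and a name was given only where sharp edges fell on exon ends. On this rule 168 of the 255 windows (65.9%) received a gene. Of these, 141 windows with 135 different genes had under 50% of their well-filled segments elsewhere in the genome. These windows are described first as single-gene windows. The label means that a gene was named for each, though other genes may also lie there. They were spread over all 19 autosomes. An edge was called sharp with at least 20 starts in the 25 bases inside it, summed over litters, and at most 20% as many in the 25 bases outside. Exon edges of every gene in a window and in a flank on each side were considered, except the outer ends of each transcript. The placement with the most sharp edges was used. An edge counted as tested only with at least 20 starts in the 25 bases on either side, so edges with little coverage were not counted. Across the 141 windows 1171 of 2189 exon edges tested were sharp. Neighbouring windows can share edges, and a name itself required sharp edges, so this share is in part set by the rule. In 81 windows at least 50% of the well-filled segments had identical start counts elsewhere, and those windows are called copy-rich and described after the single genes. The remaining 33 windows were under that limit and had no gene that met the rule. Their share of segments found elsewhere had a median of 10.1% and reached 49.7%.

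The junctions at which long exons begin are shown because these exons hold much of the starts in their windows. The 6 genes below are those whose matched main exon is the longest internal, wholly coding exon among the chromosomes shown. The sequences were read from the GENCODE M21 transcripts (GRCm38) by exon order, in the direction of the transcript. The last 30 bases of the preceding exon are in lower case and the first 30 bases of the long exon are in capitals.
Mki67 exon 12, chromosome 7, minus strand: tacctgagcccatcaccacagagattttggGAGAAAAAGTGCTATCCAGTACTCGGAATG
Srrm2 exon 10, chromosome 17, plus strand: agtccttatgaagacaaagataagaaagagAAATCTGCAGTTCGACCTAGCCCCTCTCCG
Brca2 exon 11, chromosome 5, plus strand: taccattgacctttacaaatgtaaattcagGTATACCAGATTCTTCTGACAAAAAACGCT
Ice1 exon 13, chromosome 13, minus strand: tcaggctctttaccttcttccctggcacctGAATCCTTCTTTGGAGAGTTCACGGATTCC
Ranbp2 exon 20, chromosome 10, plus strand: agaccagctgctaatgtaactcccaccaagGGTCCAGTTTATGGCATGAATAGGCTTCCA
Prr14l exon 6, chromosome 5, minus strand: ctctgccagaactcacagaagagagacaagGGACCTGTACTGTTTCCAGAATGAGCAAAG

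At the Brca2 junction, the first 200 bases of exon 11 held 132, 165 and 191 distinct alignments in litters 1, 2 and 3, placed by their middle base. The 200 bases of intron before it held 0, 2 and 0. At the Mki67 junction the counts inside were 167, 167 and 168, against 0, 2 and 0 outside. At the Ranbp2 junction they were 122, 133 and 119 inside, against 0, 0 and 4 outside. Srrm2 held 46, 120 and 49 in the first 200 bases of exon 10 and 0 in every litter before it. Prr14l held 90, 77 and 28 inside and 0 in every litter outside. Ice1 began thinly, with 3, 9 and 28 inside and 0 outside, so its edge rests on few alignments. Because alignments are placed by their middle base, those that begin up to 36 bases before the exon count as inside, and the step looks cleaner than it is at the base itself. By start position, summed over litters, the 25 bases inside and outside the junction held 51 and 8 starts in Srrm2, 56 and 1 in Ranbp2, and 39 and 4 in Prr14l. They held 68 and 35 in Brca2, 70 and 21 in Mki67, and 12 and 0 in Ice1. By the rule for sharp edges, 3 of these 6 junctions were sharp, and those of Brca2, Mki67 and Ice1 were not.

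The window with the most starts lay over the last exon of Apc, which encodes a scaffold that keeps β-catenin low in the Wnt pathway (chr18:34470001-34480000). It held 5589, 5403 and 5894 distinct starts in litters 1, 2 and 3. Its level was 877.1, 1241 and 998.9 RPM, a mean of 1039 ± 185 (SD, n = 3). The matched last exon is 10185 bases long and 8345 of them lie in the window. The longest stretch covered in every litter ran 5362 bases, from 34471653 to 34477014.

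Mdm4 had the next most starts among single genes, at chr1:134880001-134890000, with 4337, 4872 and 5155 starts. Its product restrains the tumour suppressor p53. Here the last exon is mostly untranslated and is 6006 bases long. In and around the window 9 of 16 tested edges were sharp. The longest stretch covered in all litters was 6137 bases, the longest of any member. Level was 733.5, 1047 and 1018 RPM, so litter 1 was the low one.

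Brca2, needed for repair of broken DNA by homologous recombination, held 4126, 4341 and 4750 starts in the window over its exon 11 (chr5:151340001-151350000). That exon is 4809 bases long and the longest stretch covered in every litter was 4814 bases. Its level per length of exon was 95.96, 114.9 and 120.2 RPKM. The neighbouring window, which holds exon 10 of 1107 bases, was a member by a narrow margin with 1526, 1504 and 1537 starts.

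Mki67 encodes Ki-67, a protein that coats chromosomes of dividing cells. Its exon 12 of 6836 bases spans the border of 2 member windows, with 4156, 4428 and 3957 starts in the first and 3246, 3787 and 3212 in the second. The exon stood at 199.3, 231.7 and 129.3 RPKM, highest in litter 2 and lowest in litter 3. In the Mki67 exon 88.0% of positions were used as a start in the mean of the litters.

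**Figure D1:**
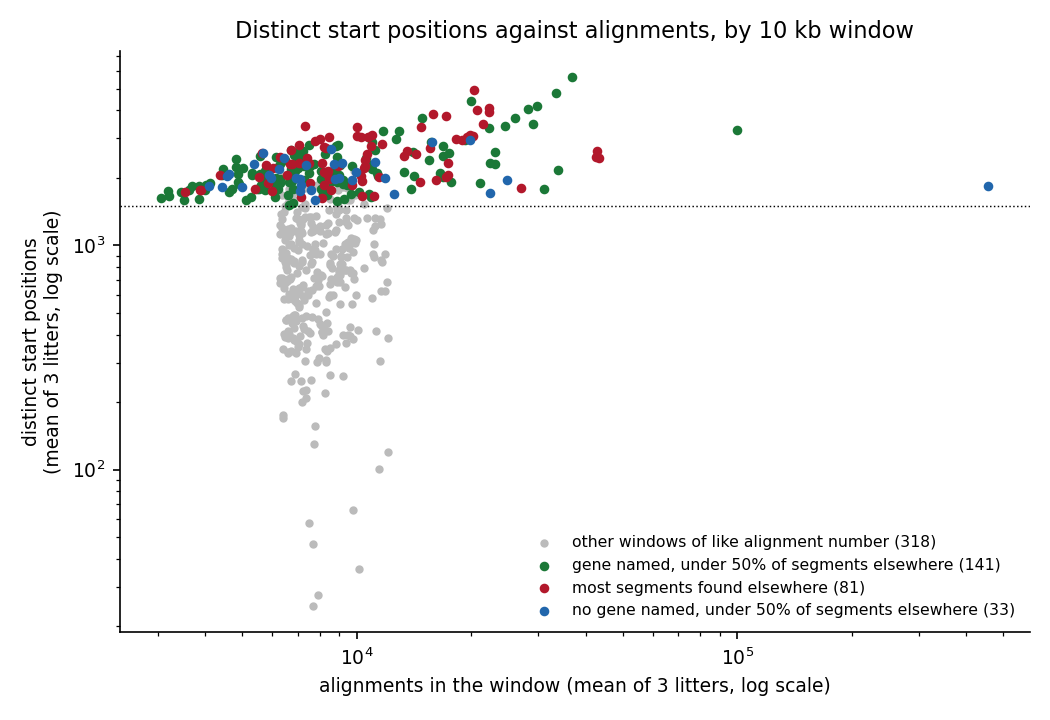
Distinct start positions (y axis, log scale) against alignments (x axis, log scale), both the mean of 3 litters, for the 255 member windows by class and for 318 other windows of like alignment number. The dotted line is the limit of 1500 starts; the grey windows have a median of 796 starts and the members in the same alignment range a median of 2153.

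Level and number of starts were different quantities. In the 318 other autosomal windows with 6264 to 12180 alignments, a median of 796 starts held the alignments, at 10.01 alignments per start. In the 127 members of the same range the medians were 2153 starts and 3.89 alignments per start. Of the 100 autosomal windows with the most alignments, 33 were members. The rule itself fixes this contrast in starts. It also bears on exon length, since many starts need long exonic sequence and the names were fitted to the same coverage, so the next values are a description. The main exon in named members, copy-rich ones included, had a median length of 3170 bases (quartiles 2058 and 4591), against 1062 bases (563.5 and 1824) in the 126 of the 318 like windows that were named. Exons held a median of 95.2% of the starts in the named members and 88.7% in the named like windows. Coding sequence held 22.5% and 24.6%.

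In 44 of the 141 single-gene windows at least 50% of starts lay in coding sequence. The other 97 were under that limit, and their remaining starts need not all lie in exons. In 96 of the 97, the main exon was the last exon of its transcript, which carries the 3′ untranslated region, and the other window matched the first exon of Gm13140, a processed pseudogene. Of the 44, 29 rested on an internal exon and 15 on a last exon. The main exon was over 3000 bases long in 87 windows and under 1000 bases in 6. The Smc4 window illustrates the latter: several short exons of this condensin subunit add up. In and around that window 18 of 40 tested edges were sharp. In 40 of the 141 windows (28.4%) the longest stretch covered in every litter came within 20 bases of the length of the main exon inside the window. Resf1 was one, with a stretch of 4395 bases against an exon of 4380, and Rif1 another, with 3105 against 3090. The stretch was shorter than the exon in the window by over 20 bases in 90 windows, and longer by over 20 in 11. Lengths alone were compared, not places.

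The part of the main exon from its midpoint to its 3′ end held a median of 46.3% ± 1.04 of its alignments (SD, n = 3 litters), and 46.2%, 47.3% and 45.3% in litters 1, 2 and 3. Single exons ranged from 0 to 90.4%, as 4 examples chosen after their values were seen show. In Rest, a repressor of neuronal genes, that part held 85.32%, and in Atf2, a transcription factor, 90.4%. In Setd2, a histone H3 lysine methyltransferase of transcribed genes, it held 13.3%, and in Apc 7.66%. The share of the main exon's positions used as a start was 55.8%, 54.6% and 59.8% at the median in the 3 litters.

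Of the 135 genes, 92 were sorted by known function after the genes had been named; the counts describe the sorting and were not tested. The examples from each role were also chosen after their values were seen. The share of all genes with each role was not computed, so the group sizes are not read as a trait of the members. A group of 35 genes acts in chromatin and transcription, with window levels of 102.1 to 2848 RPM and a median of 200.5. Its highest member was Spin1, a reader of histone methylation that is abundant in oocytes (chr13:51240001-51250000). Spin1 stood at 2032, 4103 and 2408 RPM, so litter 2 was high. Its longest stretch covered without a break was 3595 bases, against a last exon of 3585 bases. Its exon level was 793.6 ± 307 RPKM (SD, n = 3), the highest of the single-gene windows. Of its well-filled segments, 16.1% also occurred on other autosomes.

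Polycomb genes were represented by Bmi1, a subunit of the complex that ubiquitinates histone H2A, and Suz12, a subunit of the complex that methylates histone H3. Bmi1 stood at 583.8, 657.4 and 694.2 RPM, with a coefficient of variation (CV) of 8.69%. Suz12 stood at 481.6, 376.0 and 587.9 with a CV of 22.0%. All CVs of alignment levels given here have the counting variance removed. Both windows lay over last exons, of 2478 and 2279 bases.

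Among histone-modifying enzymes, the acetyltransferases Ep300 and Crebbp had close window levels. Ep300 stood at 104.4, 118.2 and 102.6 RPM, and Crebbp at 123.3, 166.6 and 153.9. Setd2 stood at 182.9, 161.2 and 171.7, a spread of 6.18%. Kmt2c, a histone H3 methyltransferase, stood at 227.0, 348.8 and 562.1, a spread of 44.7% with litter 3 highest. Of the 12 chromatin genes listed for the design, these 4 had a member window. Of the 20 maternal genes listed only Spin1 did, and of the 8 ubiquitin and SUMO genes 0 did. These lists were drawn up with earlier results of these data known. A gene without a member window can still be highly expressed, since a short transcript offers few start positions. Only autosomal windows and exons were searched, so a listed gene on the X chromosome could not be counted. Nor could a gene in a window left without a name. The share over all genes was not computed, so these counts only describe the lists.

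Genome maintenance and cell division accounted for 12 genes in 14 windows, of which 11 windows were mainly coding. Besides Brca2 and Mki67 they include Rif1, which sets the timing of DNA replication, at 562.3, 561.8 and 727.5 RPM. Knl1, a kinetochore scaffold, had a lower and steadier window level, at 96.11, 90.71 and 84.25. These RPM are of whole windows and depend on how much exon lies in each, so they do not rank genes. Rev3l, the catalytic subunit of a translesion polymerase, stood at 154.1, 130.4 and 123.0. Esco1, a cohesin acetyltransferase, stood at 166.8, 378.2 and 188.7, where litter 2 was apart from the other litters.

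The ubiquitin group held 16 genes, with 14 of the 16 windows mainly outside coding sequence. Ube2d2a, an E2 conjugating enzyme on chromosome 18, had a high window level, at 688.5, 912.4 and 993.2 RPM. In that window 26.9% of the well-filled segments also occurred on other autosomes, so part of its level cannot be assigned. Cbl, a ligase for activated receptors, had an exon level of 14.98 RPKM and a CV of 47.9%. Kbtbd8, a substrate adaptor, had a CV of 4.95%.

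RNA binding and translation took 15 genes. Eif4g2, which drives cap-independent initiation, stood at 661.55, 463.0 and 737.9 RPM, with 25.2% of its last exon's positions used as a start. Cnot6l, a catalytic subunit of the deadenylase that shortens poly(A) tails of maternal messages, had the smallest spread of any single-gene window: 169.6, 157.2 and 157.7 RPM, a CV of 4.15%. Srrm2, a splicing coactivator, stood at 377.9, 372.5 and 482.2.

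Signalling took 14 genes in 17 windows. Strn, a scaffold of a phosphatase complex, stood at 918.6, 485.1 and 930.1 RPM, with litter 2 well below the other litters. Jmy, an actin nucleator and p53 cofactor outside this group, varied most among the single genes, at 341.0, 110.5 and 159.0, a CV of 59.7%. Ccdc6, a coiled-coil gene, had a window level both high and steady, at 840.6, 736.0 and 852.0. Gm1965, a long noncoding RNA gene on chromosome 6, stood at 798.3, 950.9 and 1070 with 86.4% of its start positions shared by all litters.

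**Figure D2:**
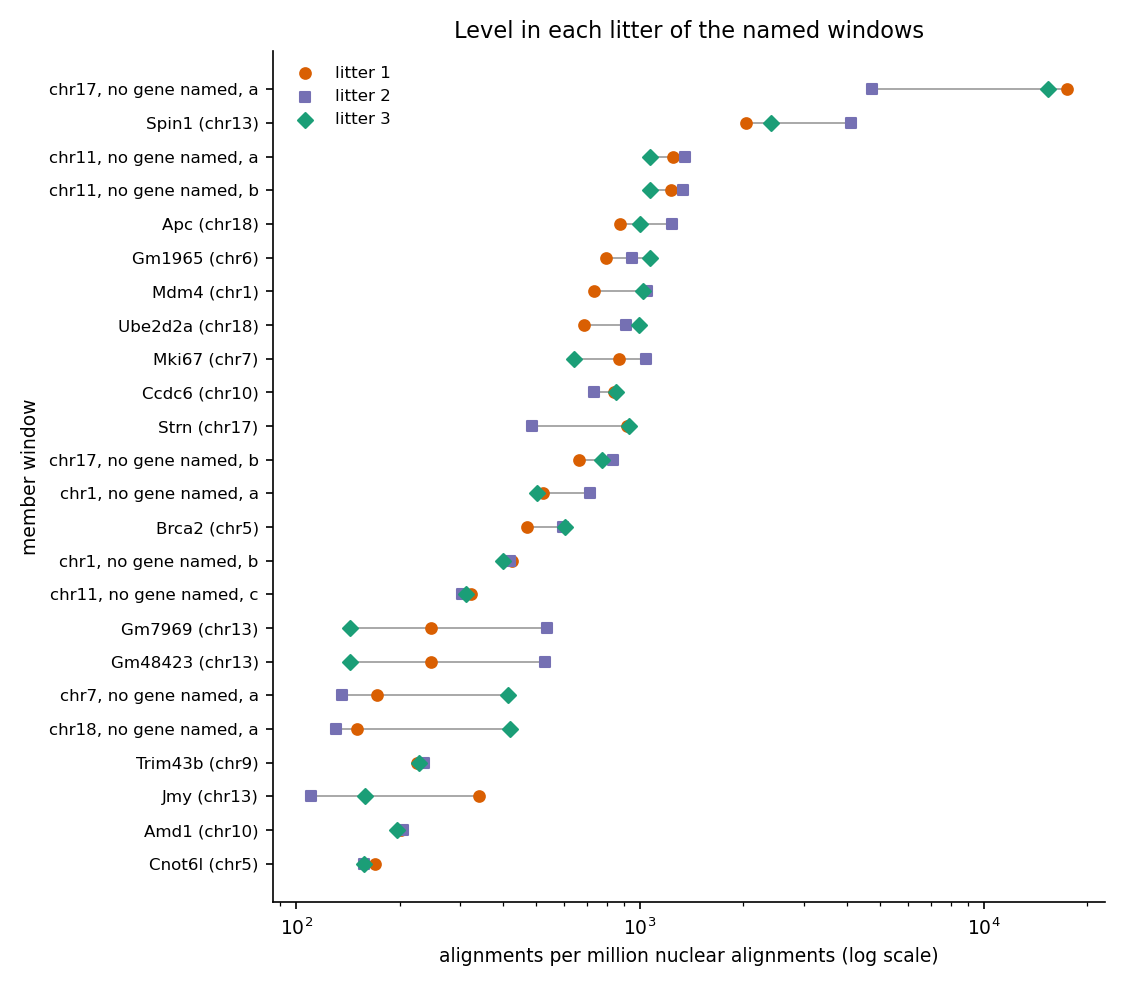
Level in RPM (x axis, log scale) in each litter (points) for the windows with the highest levels, the most starts and the largest and smallest spread (y axis, with the gene where one was named); lines join the lowest and highest litter. The Amd1 window spans 196.6 to 204.2 and the Jmy window 110.5 to 341.0.

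Windows whose start counts recurred elsewhere made up 81 of the 255 members (31.8%). A segment of 32 bases counted as recurring when its start counts in all 3 litters were the same, forward or reversed, at another place. These windows were covered over a median of 6323 bases, against 4654 in the single-gene windows, in shorter stretches: the longest unbroken stretch had a median of 1555 bases against 2200. Their level, a median of 284.3 RPM, adds up the same alignments at several places, and genes with near-identical copies cannot be told apart in it. Gene names in this class are therefore uncertain.

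The recurring windows lay in groups, whose bounds were set after their places were seen. Of the 81, 69 fell in 10 groups and 12 lay apart. The largest share of the other places was on the same chromosome in 38 windows, on random contigs in 33 and on other autosomes in 10. Random contigs are assembled sequence with no position along a chromosome, though many carry a chromosome's name and are counted apart from it here. Chromosome 1 held the most copy-rich windows, with 16 between 84.98 and 85.29 Mb and 9 between 87.35 and 87.52 Mb. All 25 were copy-rich. The first 16 were covered over a median of 8032 bases. The window at chr1:85270001-85280000 had 4356, 5658 and 4735 starts, the most of any copy-rich window, and was covered over 9218, 9609 and 9580 of its 10000 bases. Of the other places holding its segments, 90.2% were on random contigs. In the 16 windows litter 2 was highest in 12 and lowest in 0, and in the 9 it was highest in 7 and lowest in 0. Over all 255 members litter 2 was highest in 89 and lowest in 82. Because their segments recur, the windows of these groups are not separate observations. All but 3 of the windows in runs of 3 or more were of chromosome 1.

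On chromosome 5 between 93.91 and 95.95 Mb, 14 of 15 windows were copy-rich, and a segment was found at a median of 13 places. Random contigs held a median of 59.3% of the other places. The shape match gave 10 of these 15 windows names of predicted genes such as C87414 and D5Ertd577e, which stand here for the family and not for 1 locus. Litter 1 was lowest in 10 of the 15, against 119 of all 255 members. Windows of nearly the same level recurred along the cluster: those named C87414, Gm6205 and Gm6367 stood at 190.45, 189.95 and 190.42 RPM in litter 1.

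The chromosome 4 group, between 143.4 and 147.1 Mb, had 15 windows, 10 of them copy-rich. Its spread was low, with a median CV of 8.50% and a highest CV of 18.8%. The names matched there include Pramel4, of the PRAME-like family expressed in early embryos, and the zinc-finger genes Zfp600 and Rex2. On chromosome 12, 7 windows between 88.94 and 89.42 Mb, 5 of them copy-rich, were all highest in litter 2. Their medians were 249.0, 526.3 and 234.6 RPM in litters 1, 2 and 3. Over all 255 members litter 2 was highest in 89, and windows with recurring segments are not separate observations. One of the chromosome 12 windows matched Oog1, an oocyte gene, at 412.2, 571.1 and 470.6. On chromosome 13 a pair of windows at 68.05 and 68.08 Mb had nearly the same values, 247.5, 534.9 and 143.6 in one and 247.0, 530.0 and 143.4 in the other. Their segments occurred at a median of 4 places, so this is 1 pattern and not 2 observations.

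The highest copy-rich windows lay on chromosome 11 between 60.38 and 60.50 Mb. The window at 60.48 Mb stood at 1250, 1350 and 1069 RPM, at 60.44 Mb at 1229, 1331 and 1071, and at 60.49 Mb at 1224, 1328 and 1067. Each had an unbroken stretch of 1552 to 1555 bases. The run of 3 windows on chromosome 2, from 83.80 to 83.83 Mb, had 2005 to 3385 starts, 7 places per segment at the median and a spread of 5.28% to 7.05%. Its 2756-base stretch appeared with the same length in each of the 3 windows. Among the 12 windows outside the groups, chr17:90300001-90310000 was among the runs of highest level, at 665, 833 and 774 RPM, with 1992, 1994 and 1993 bases covered; other autosomes held 97.9% of its other places. In the pair on chromosome 19, at 40.63 and 40.69 Mb, other autosomes held 65.2% and 64.8% of the other places.

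**Figure D3:**
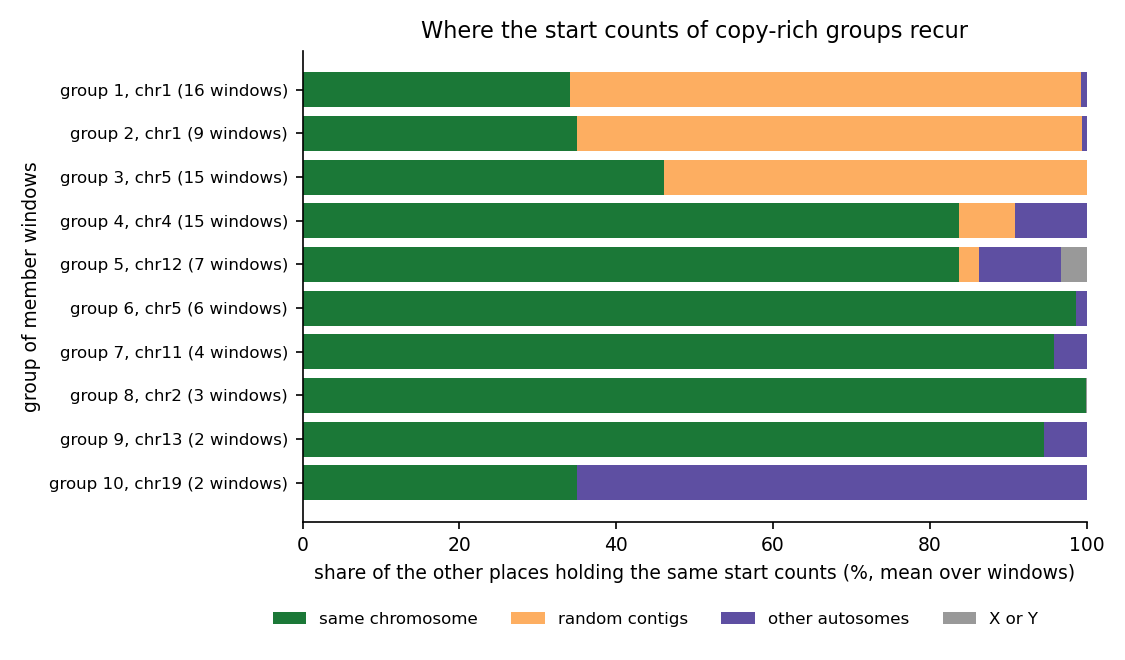
Share of the other places at which segments of each group's windows recur (x axis, percent, mean over the windows), by kind of place, for 10 groups of member windows (y axis). In group 1, the 16 windows of chromosome 1 near 85 Mb, random contigs hold 65.2% of the other places and the same chromosome 34.1%.

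Of the 33 windows below the copy limit and with no gene, the one on chromosome 17 at 39.98 Mb had the highest level of all members, 17446, 4720 and 15409 RPM. It held only 1957, 1554 and 2018 starts, so each start carried a mean of 237 alignments, against a median of 3.83 over all members. The windows chr18:21140001-21150000 and chr7:109790001-109800000 had like values. The first stood at 149.9, 131.0 and 418.9 and the second at 172.1, 136.4 and 413.5 RPM, with litter 3 apart in both; 43.1% and 33.5% of their segments recurred elsewhere. The window at 3.87 Mb on chromosome 19 was covered over 7060 bases in the mean, had 9.54% of its start positions shared by all litters, the lowest share of any member, and after the match lay wholly in an intron.

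The litters differed moderately over the members. The CV of the level had a median of 18.6% with quartiles of 12.4% and 28.3%, and a range from 1.53% to 69.0%. The 318 other windows of like alignment number had a median of 19.7%, and the 127 members in the same range 20.3%. The median CV was 18.3% in the single-gene windows, 18.8% in the copy-rich ones and 20.3% in the rest. Litters 1, 2 and 3 were highest in 43, 89 and 123 members and lowest in 119, 82 and 54. A difference of more than 2 fold between the highest and the lowest litter was seen in 31 members, 12.2%. The share was 20.8% in the windows of like alignment number and 73.9% in all autosomal windows averaging 100 alignments or more, most of which held far fewer alignments. Because members had to reach the limit in each litter, a low share is in part set by the rule.

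**Figure D4:**
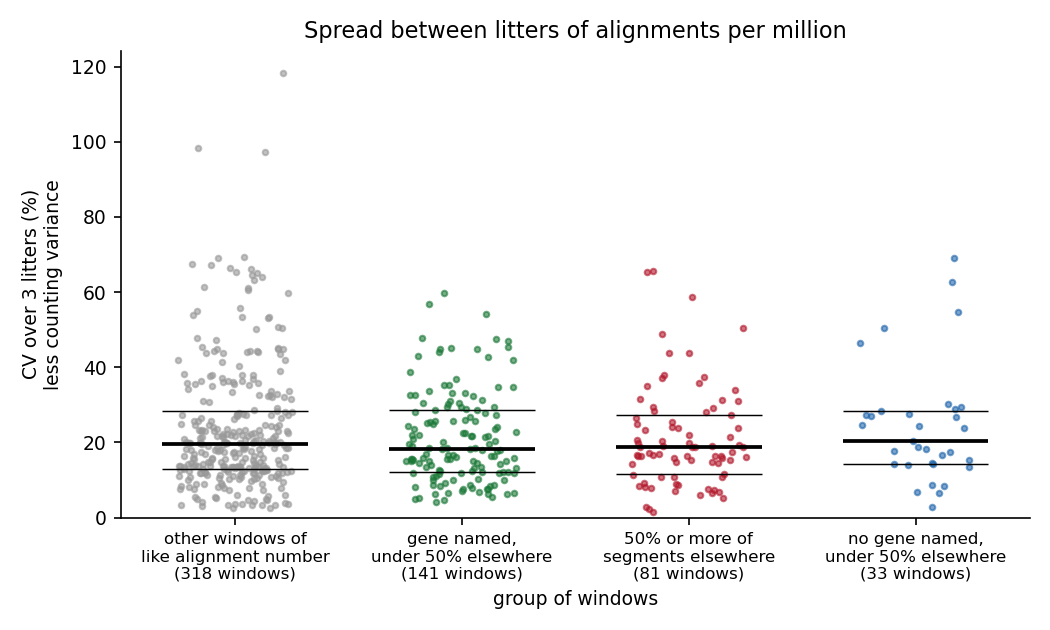
Coefficient of variation over the 3 litters (y axis, percent, counting variance removed) for each window (points) in 318 other windows of like alignment number and in the 3 classes of members (x axis). Thick lines are medians, of 19.7%, 18.3%, 18.8% and 20.3% from left to right, and thin lines are quartiles.

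Of the 5 least variable members 3 were copy-rich. Amd1 on chromosome 10 stood at 202.2, 204.2 and 196.6 RPM, and Trim43b on chromosome 9 at 225.1, 236.1 and 228.3. The third copy-rich window, on chromosome 1 at 87.49 Mb, stood at 423.1, 419.7 and 400.1. A window on chromosome 11 at 77.10 Mb stood at 322.4, 304.3 and 311.2. It missed that class narrowly, with 49.6% of its segments found elsewhere. The fifth was Cnot6l, a single-gene window with 0% of its segments elsewhere. A median of 34.5% of the start positions seen in any litter were used in all 3, with quartiles of 25.9% and 48.7%.

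Members were not evenly placed. Chromosome 1 held 41 and chromosome 5 held 38, 0.208% and 0.249% of their windows, and chromosomes 14 and 15 held 4 each. Without the copy-rich windows 16 and 18 would remain on chromosomes 1 and 5. The 255 windows formed 225 runs, of which 208 were single windows and 5 had 3 windows or more. The limit cut a continuous distribution. The 5 members just inside had 1504 to 1511 starts in their lowest litter. Their places are chr3:35790001-35800000, chr5:151330001-151340000 (Brca2), chr17:45700001-45710000 (Hsp90ab1), chr9:88980001-88990000 (Trim43b) and chr1:136520001-136530000 (Kdm5b). The 5 windows just outside had 1492 to 1498, such as that at 88.06 Mb on chromosome 8 with 1700, 1498 and 1606. In any litter 631 windows reached the limit, 111 of them in 2 litters and 265 in 1.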

How the data were processed

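RNA coverage was measured in 3 litters of 2-cell embryos. The authors deposited 1 coverage track per litter, a signal per base on mm9; alignment with Bowtie is given per the submitters' processing notes, and its handling of reads with several matches is not given in the sources used here. Each rise of coverage was read as alignments that start there, each of 72 bases, and distinct start positions were counted in windows of 10000 bases. Recovery was tested on simulated data. Levels are alignments per 1000000 nuclear alignments (RPM). The coefficient of variation is the SD over the mean of the litters, less the counting variance. Python 3.11.15, numpy 2.4.6, pandas 2.3.3 and scipy 1.17.1 were used, with matplotlib 3.10.9 for figures.

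Genes were placed by matching exon lengths and spacings of GENCODE M21 (GRCm38) to the coverage. A name needed at least 2 sharp edges, 25% of tested edges sharp and 30% of starts in exons of the gene. With at least 90% of starts in its exons, 1 sharp edge was enough. No coordinate of that build is printed. The design named the 12 runs with the highest level, the 5 windows with the most starts, the 5 with the largest and the 5 with the smallest spread, the 5 on each side of the limit and the runs of 3 or more windows. Members and lists were chosen with earlier results of these data known. Alternatives were other limits (1200 and 2000 starts), thinning to 32431630 alignments, windows moved by 5000 bases, other scalings, a coverage of 5, and leaving out each litter. Leaving out windows found elsewhere was added after the data were seen. Precision rests on 3 litters, and counting error alone understates it because amplified copies are not independent. Of 20 maternal genes only Spin1 had a named member window, with genes on the X chromosome not searched. Levels of the other cell type markers were not analysed here.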

Additional observations from a re-analysis of the deposited data

Results flagged for a closer look

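Windows outside the autosomes reached the same limit. On the X chromosome 10 windows had 1500 or more distinct starts in every litter, among them 3 neighbouring windows starting at 12.74, 12.75 and 12.76 Mb. On random contigs 60 windows did, 28 of them on the contigs of chromosome 1, 14 on those of no chromosome, 13 on those of chromosome 8, 4 on those of chromosome 5 and 1 on those of chromosome 4. There were no control samples, and both counts are given as values.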

How the results depend on the processing

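No paired analysis was possible because the 3 litters form 1 group. Of 43 recomputed values 24 stayed within the spread between litters, or for the number of windows within 1.5 times, and 19 moved further. The number of windows was 255, and 274 to 318 when each litter was left out, 237 with windows moved and 236 after thinning. A limit of 1200 starts gave 446 windows and 13.8% of autosomal alignments, and a limit of 2000 gave 102 windows and 4.67%. Counting distinct starts in place of alignments gave a level of 203.2 starts per 1000000 nuclear distinct starts and a share of 6.14% of autosomal starts. The spread of the start counts was 10.6%, not scaled for depth and with the counting variance left in, so it is not a like measure. A coverage of at least 5 gave 4222 covered bases against 5015, and a total without the 3 windows left out gave a level of 249.5. Thinning gave 33.6% shared positions. Leaving out each litter gave a spread of 13.9% to 17.3% and shared positions of 50.3% to 51.6%, where fewer litters are compared. Without windows found elsewhere, an alternative chosen after seeing the data, 174 windows remained, 4698 bases were covered, the level was 211.2, the share 6.81% and shared positions 36.5%. The cause of the other moves was not tested. Gene names rest on a shape match to another build, and levels in copy-rich windows cannot be assigned to 1 locus.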
